A study of Homo sapiens with 61 samples.

Results

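The GADD45 family (growth arrest and DNA damage inducible) has 3 genes, GADD45A, GADD45B and GADD45G, and they were taken by symbol from the 58440 genes counted. All 3 passed the filter on low counts in both experiments. RNA was sequenced from 61 libraries of human neurons made from WTC11, an established induced pluripotent stem cell line, by forced expression of NGN2, a transcription factor that turns stem cells into neurons. Every group was wild type or edited in this one background, and each was given vincristine at 5 nM, a drug that depolymerises microtubules, or the DMSO solvent (labelled untreated) for 16 hours from day 14. Experiment 1 compared WT with the knockout lines DLK KO, LZK KO and the DLK LZK double KO (below, double KO), with 4 libraries per line and treatment. DLK (MAP3K12) and LZK (MAP3K13) are related stress kinases upstream of the kinase JNK. Experiment 2 used neurons with the CRISPR interference machinery, which silences a promoter, and a guide RNA: Control gRNA (scrambled), with 5 untreated and 5 vincristine libraries, ATF2 gRNA, with 5 and 4, and JUN gRNA, with 5 and 5. ATF2 and JUN are transcription factors that JNK phosphorylates. There was 1 line per genotype or guide, so line and genotype cannot be told apart. The labels number the replicates but do not say that they were separate cultures, so p-values measure the spread between these libraries, which may be technical.

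GADD45 proteins are small, acidic and largely nuclear, have no enzyme activity of their own, and act by binding partners. They bind and activate the kinase MAP3K4 upstream of p38 and JNK, bind PCNA, CDKN1A and the CDK1 complex with cyclin B, and help the TET and TDG enzymes remove DNA methylation at chosen promoters. GADD45A is the classic DNA damage gene of the family, GADD45B is an early gene of neuronal activity, and GADD45G is expressed in the developing nervous system and linked to growth arrest.

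On GRCh38, GADD45A (ENSG00000116717.11) lies on the plus strand of chromosome 1 from 67685061 to 67688338, GADD45B (ENSG00000099860.8) on the plus strand of chromosome 19 from 2476122 to 2478259, and GADD45G (ENSG00000130222.10) on the plus strand of chromosome 9 from 89605013 to 89606555. All 3 are protein coding, and no other annotated gene overlaps them in GENCODE 29. RefSeq also lists a pseudogene of GADD45A, and how the counting treated reads that match both was not tested. RefSeq promoters on GRCh38.p14 were found for 2 of the 3 members, and both are shown because the untreated levels of these genes differed from WT in opposite directions in DLK KO. The 250 bases before each start site are printed on the plus strand (chr9:89604762-89605011 and chr19:2475877-2476126), with motif matches in capitals.
GADD45G: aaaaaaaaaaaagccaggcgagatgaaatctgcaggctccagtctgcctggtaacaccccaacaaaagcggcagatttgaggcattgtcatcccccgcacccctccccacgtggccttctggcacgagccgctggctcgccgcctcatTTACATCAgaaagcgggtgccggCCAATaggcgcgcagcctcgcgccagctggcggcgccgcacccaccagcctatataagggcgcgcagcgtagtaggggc
GADD45B: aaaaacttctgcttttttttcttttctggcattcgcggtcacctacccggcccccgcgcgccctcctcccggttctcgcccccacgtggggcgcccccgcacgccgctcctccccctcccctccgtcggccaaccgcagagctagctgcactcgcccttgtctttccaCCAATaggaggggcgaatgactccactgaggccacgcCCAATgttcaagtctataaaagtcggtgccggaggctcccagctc
Motifs were searched on both strands over these bases and the next 50. Neither promoter held TGACGTCA, the cyclic AMP response element that ATF2 and JUN dimers can bind (in 1.85% of 35116 promoters of 300 bases), or TGANTCA, the AP-1 site (7.71%). GADD45G held TGATGNAA, an element of CEBP and ATF factors (3.62%), once on the minus strand from -102, printed as TTACATCA. CCAAT, the box bound by NF-Y and added after the sequences were seen (34.6%), began at -79 in GADD45G and at -82 and -45 in GADD45B. These are matches of letters in a short window, not sites shown to be bound.

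Total counts ran from 8.41 to 14.6 M (mega) per library in experiment 1, against 38.9 to 88.4 M in experiment 2. Levels are in CPM, the library-scaled counts of edgeR with TMM factors, and are compared within an experiment only. The targeted genes were lower in the targeted lines than in the control line in both treatments, with no overlap. MAP3K12 was at 16.6 to 31.4 CPM in DLK KO and double KO against 72.8 to 121 in WT, and MAP3K13 at 26.7 to 37.8 CPM in LZK KO and double KO against 96.8 to 145 in WT, so transcript remained in the knockouts. ATF2 was at 0.106 to 0.997 CPM in ATF2 gRNA against 111 to 158 in Control gRNA, and JUN at 2.24 to 7.74 CPM in JUN gRNA against 81.7 to 255. JUN was also at 17.1 to 23.8 CPM in ATF2 gRNA, and ATF2 at 62.3 to 77.8 CPM in DLK KO against 121 to 170 in WT. WT vincristine replicate 4 stood apart, with JUN at 289 CPM against 538 to 629 in the other 3 and MAP3K12 at 72.8 CPM against 109 to 121. Without it the effect in WT was 1.74 for GADD45A, 2.57 for GADD45B and 1.08 for GADD45G (log2), and no call of a member changed. The 8 neuron markers summed to 6007 to 9493 CPM over all libraries, but the lines differed. Untreated sums in experiment 1 were 7708 to 8236 CPM in WT and 6007 to 6736 in DLK KO. They were 8077 to 8690 CPM in LZK KO and 8621 to 8784 in double KO. In experiment 2 they were 8750 to 9323 CPM in Control gRNA, 6884 to 7301 in ATF2 gRNA and 8857 to 9493 in JUN gRNA. With vincristine the sums were 7292 to 7665 CPM in WT, 6377 to 6711 in DLK KO and 8941 to 9351 in LZK KO. In double KO they were 8776 to 9354 CPM. Control gRNA with vincristine was at 6925 to 7375 CPM, ATF2 gRNA at 6474 to 6717 and JUN gRNA at 7373 to 7785. These sums lay below the untreated ones with no overlap in WT, Control gRNA, ATF2 gRNA and JUN gRNA, and above them in LZK KO. Single neuron markers went both ways. In untreated DLK KO MAP2 was at 1226 CPM against 2337 in WT, but SYT1 at 837 against 668. In untreated ATF2 gRNA STMN2 was at 1371 CPM against 2527 in Control gRNA, but RBFOX3 at 114 against 59.4. The 2 glutamatergic markers, SLC17A6 and SLC17A7, summed to 302 to 342 CPM in untreated WT and 156 to 217 in the untreated knockout lines. In untreated DLK KO SLC17A6 was lower (171 against 299 CPM in WT) and SLC17A7 higher (42.6 against 28.5 CPM). The 2 markers summed to 382 to 424 CPM in untreated Control gRNA and 455 to 500 in untreated ATF2 gRNA. The labels call the cells cortical, and 2 cortical markers were read. TBR1 was low, with group means of 0.218 to 2.82 CPM, and CUX1 was at 101 to 161 CPM. The part of these marker differences in the GADD45 results was not tested.

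Vincristine raised all 3 members in WT and in Control gRNA, and fewer of them, or none, in the lines that targeted DLK, LZK or ATF2. A gene is called when its p-value from edgeR's quasi-likelihood test is under 0.05 after Benjamini-Hochberg adjustment over every gene in the comparison. In WT all 3 members rose, as did 15.7% of the 18235 genes tested. In DLK KO 1 of 3 rose (4.24% of genes rose), in LZK KO 1 of 3 (2.27%), and in double KO 0 of 3 (0.00548%). In Control gRNA all 3 rose (17.1% of 20759 genes rose), in ATF2 gRNA 0 of 3 (1.88%), and in JUN gRNA all 3 (7.58%). In double KO 1 member had an unadjusted p under 0.05 and DESeq2 and limma voom each called 0, and in ATF2 gRNA all 3 of these counts were 0. In bulk RNA, fewer cells of a type and less RNA per cell cannot be told apart.

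**Figure D1:**
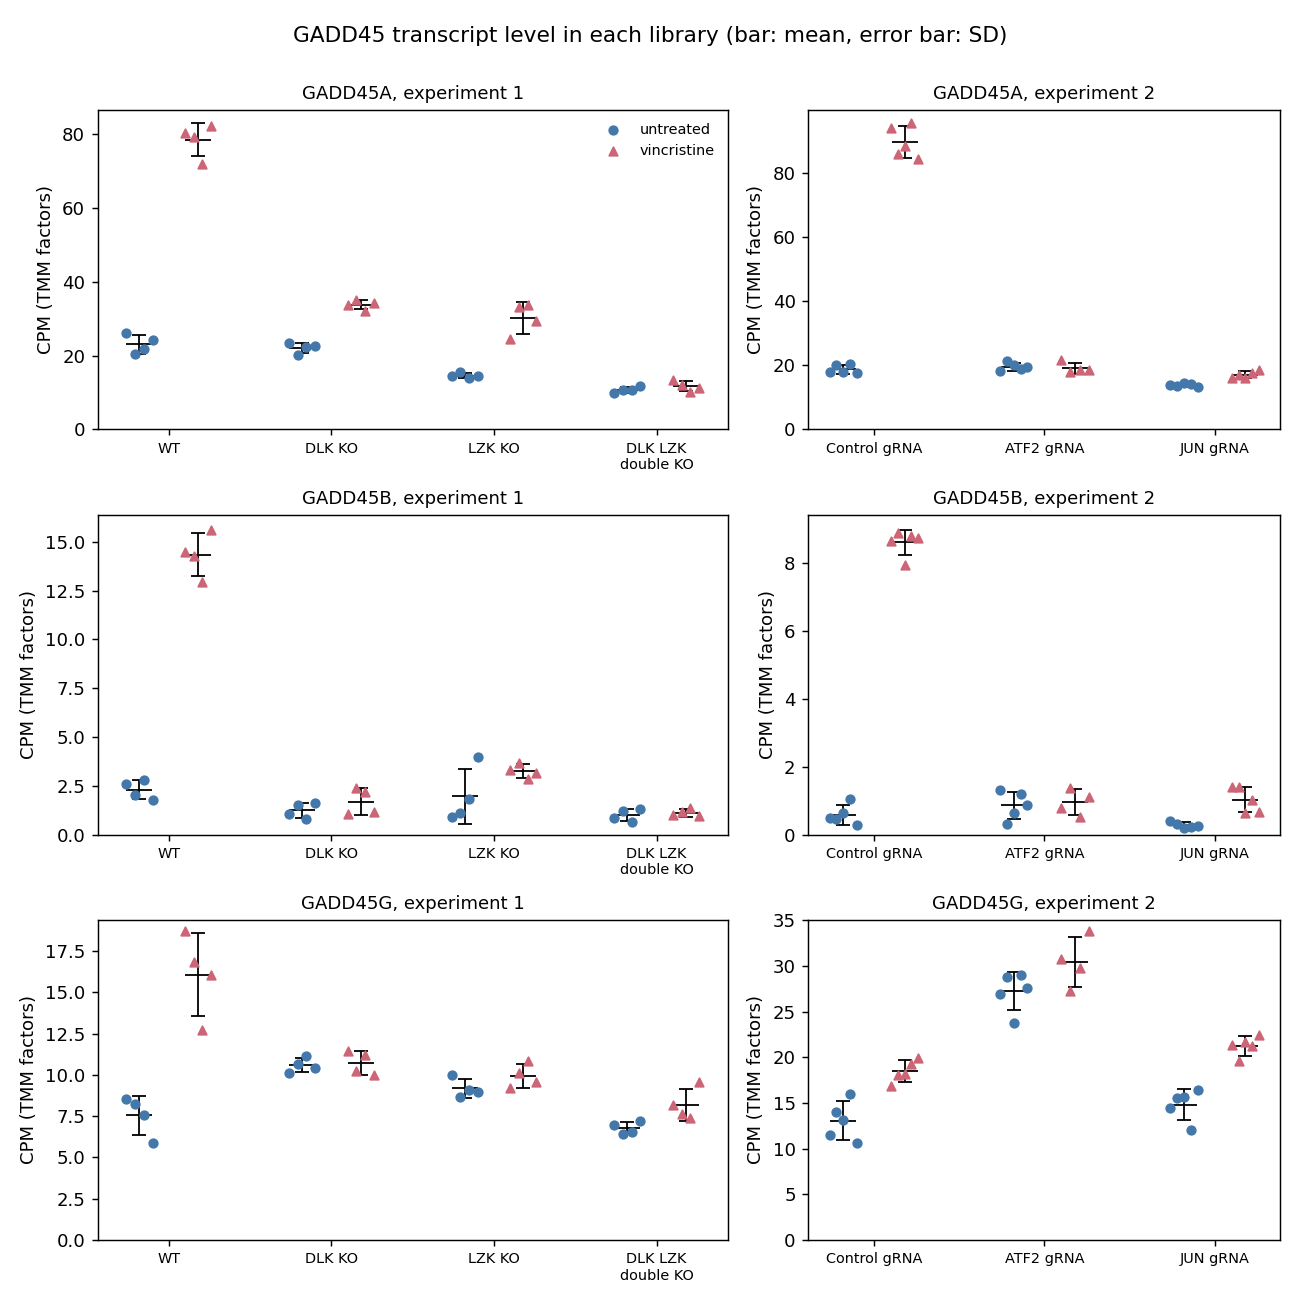
Level of GADD45A, GADD45B and GADD45G (vertical axis, CPM from 0) in each library of the 14 groups, by line; circles are untreated and triangles vincristine libraries, and bars show mean and SD. WT vincristine and Control gRNA vincristine stand above every other group for GADD45A and GADD45B, while for GADD45G both ATF2 gRNA groups stand highest in experiment 2.

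GADD45A rose in WT and in both single knockouts, but was not called in double KO. In WT it stood at 26.2, 20.3, 21.8 and 24.1 CPM untreated and at 80.3, 79.3, 72.0 and 82.3 CPM with vincristine. Every vincristine library lay above every untreated one, a log2 fold change of 1.76 ± 0.09 (SE, n = 4 and 4, edgeR adjusted p = 3.24e-18), or 3.39-fold between the means. In DLK KO the libraries were at 23.3, 20.1, 22.4 and 22.6 CPM untreated and at 33.7, 35.0, 32.2 and 34.3 with vincristine. This rise was smaller, 0.61 ± 0.09 (edgeR adjusted p = 1.78e-05), again with no overlap. In LZK KO GADD45A went from 14.4, 15.5, 14.0 and 14.4 CPM to 24.5, 33.3, 33.8 and 29.4, a log2 fold change of 1.05 ± 0.10 (edgeR adjusted p = 8.04e-10). The vincristine libraries of LZK KO overlapped the untreated libraries of WT. In double KO the libraries were at 9.88, 10.7, 10.7 and 11.8 CPM untreated and at 13.5, 12.0, 10.2 and 11.4 with vincristine. The groups overlapped, and the change of 0.12 ± 0.10 was not called (edgeR adjusted p = 0.826).

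In experiment 2 GADD45A rose in Control gRNA, rose slightly in JUN gRNA and was not called in ATF2 gRNA. Control gRNA went from 17.8, 20.2, 18.0, 20.4 and 17.5 CPM of GADD45A to 93.9, 85.7, 88.2, 95.5 and 84.1, 4.76-fold between the means and 2.25 ± 0.07 on the log2 scale (n = 5 and 5, edgeR adjusted p = 4.07e-30). With ATF2 gRNA it was at 18.1, 21.3, 19.9, 18.8 and 19.4 CPM untreated and at 21.6, 18.0, 18.4 and 18.4 with vincristine. The untreated libraries overlapped those of Control gRNA, and vincristine gave a log2 change of -0.03 ± 0.07 (edgeR adjusted p = 0.87). With JUN gRNA it was at 13.8, 13.5, 14.6, 14.2 and 13.2 CPM untreated and at 15.9, 17.1, 16.0, 17.4 and 18.5 with vincristine. These groups did not overlap, and the small rise of 0.29 ± 0.07 was called (edgeR adjusted p = 0.00101), but no vincristine library was above 18.5 CPM.

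GADD45B, the lowest of the 3 per kilobase of gene in every group, had the largest fold change in WT, Control gRNA and JUN gRNA. In WT it stood at 2.58, 2.05, 2.81 and 1.79 CPM untreated, from 18 to 40 counts a library, and at 14.5, 14.3, 13.0 and 15.6 CPM with vincristine. The rise was 2.61 ± 0.23 on the log2 scale (edgeR adjusted p = 1.12e-11), 6.22-fold between the means. DLK KO held 1.05, 1.5, 0.795 and 1.61 CPM untreated and 1.07, 2.39, 2.19 and 1.14 with vincristine, and the groups overlapped (0.49 ± 0.33, edgeR adjusted p = 0.389). LZK KO held 0.91, 1.08, 1.85 and 4.00 CPM untreated and 3.32, 3.68, 2.86 and 3.15 with vincristine. Untreated replicate 4 lay above all 4 treated libraries, and the change of 0.73 ± 0.29 was not called (edgeR adjusted p = 0.185). Without that library the change was 1.29 and was called (edgeR adjusted p = 0.00514). Double KO held 0.832, 1.20, 0.671 and 1.30 CPM untreated and 0.994, 1.16, 1.39 and 0.938 with vincristine, from 8 to 16 counts a library (0.17 ± 0.37, edgeR adjusted p = 0.936).

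Control gRNA showed the steepest rise of any member in any line. GADD45B was at 0.498, 0.45, 0.636, 1.06 and 0.29 CPM untreated and at 8.65, 8.88, 7.95, 8.80 and 8.74 with vincristine, 14.7-fold between the means and 3.87 ± 0.32 on the log2 scale (edgeR adjusted p = 5.46e-14). ATF2 gRNA was at 1.32, 0.324, 0.622, 1.19 and 0.866 CPM untreated and at 0.782, 1.39, 0.508 and 1.11 with vincristine. Its libraries were intermixed, and the change was 0.14 ± 0.33 (edgeR adjusted p = 0.889). JUN gRNA was at 0.408, 0.303, 0.203, 0.233 and 0.258 CPM untreated, from 13 to 26 counts a library, and at 1.40, 1.41, 0.644, 1.03 and 0.66 with vincristine. All treated libraries lay above all untreated ones, and the rise of 1.87 ± 0.33 was called (edgeR adjusted p = 2.95e-05). The level reached, 1.03 ± 0.376 CPM (SD, n = 5), was 11.9% of that in Control gRNA vincristine.

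GADD45G rose in WT and was not called in any knockout line. In WT it stood at 8.51, 8.20, 7.59 and 5.86 CPM untreated and at 18.7, 16.8, 12.7 and 16.1 with vincristine, a rise of 1.09 ± 0.11 (edgeR adjusted p = 1.13e-09) or 2.13-fold. DLK KO was at 10.1, 10.7, 11.1 and 10.4 CPM untreated and at 11.5, 10.2, 11.2 and 10.0 with vincristine (0.02 ± 0.11, edgeR adjusted p = 0.952). LZK KO was at 10.0, 8.66, 9.07 and 8.95 CPM untreated and at 9.20, 10.1, 10.8 and 9.56 with vincristine (0.12 ± 0.12, edgeR adjusted p = 0.709). In both single knockouts the treated and untreated libraries overlapped. Double KO was at 6.97, 6.42, 6.54 and 7.17 CPM untreated and at 8.17, 7.63, 7.37 and 9.57 with vincristine. Its groups did not overlap, but the change of 0.27 ± 0.12 was not called (unadjusted p = 0.0333, edgeR adjusted p = 0.802).

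Untreated GADD45G in ATF2 gRNA was already above the level that vincristine gave in Control gRNA. Control gRNA was at 11.5, 14.0, 13.2, 16.0 and 10.6 CPM untreated and at 16.9, 18.1, 18.2, 19.3 and 20.0 with vincristine (0.50 ± 0.09, edgeR adjusted p = 7.65e-06). ATF2 gRNA was at 27.0, 28.8, 23.8, 29.0 and 27.6 CPM untreated and at 30.8, 27.3, 29.8 and 33.9 with vincristine (0.16 ± 0.09, edgeR adjusted p = 0.363). JUN gRNA was at 14.4, 15.5, 15.7, 12.1 and 16.4 CPM untreated and at 21.4, 19.5, 21.7, 21.3 and 22.4 with vincristine (0.52 ± 0.09, edgeR adjusted p = 1.01e-05). Thus GADD45G rose in Control gRNA and in JUN gRNA with no overlap of libraries, by 1.42-fold and 1.44-fold between the means.

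**Figure D2:**
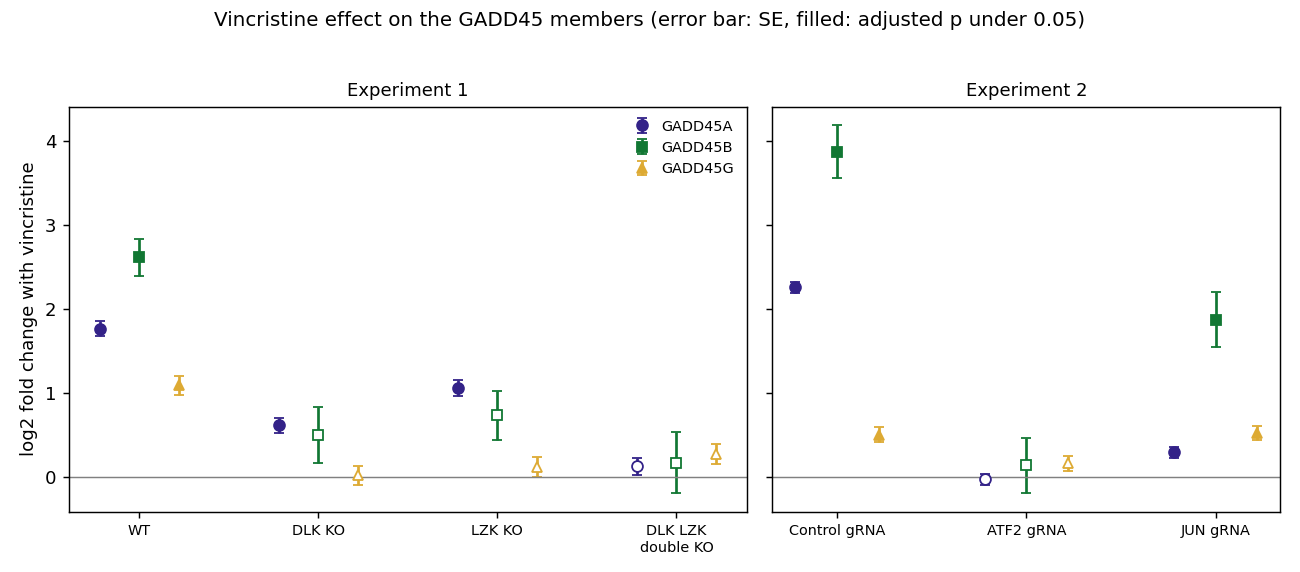
Log2 fold change with vincristine (vertical axis) for each member in each of the 7 lines, with standard errors from the edgeR fit; filled points were called. GADD45A and GADD45B are highest in WT and Control gRNA, and GADD45G in JUN gRNA (0.52) lies beside its value in Control gRNA (0.50).

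Whether a line changed the response was tested on the difference in log2 fold change itself. All 3 members responded less than in WT in DLK KO (9.41% of genes were called lower), in LZK KO (6.53%) and in double KO (10.2%), comparisons that share the WT libraries. For GADD45A the differences were -1.15 ± 0.13 in DLK KO (edgeR adjusted p = 1.28e-08), -0.71 ± 0.13 in LZK KO (0.000219) and -1.64 ± 0.14 in double KO (1.56e-11). For GADD45B they were -2.12 ± 0.42 (edgeR adjusted p = 0.000362), -1.88 ± 0.38 (0.000677) and -2.44 ± 0.45 (9.62e-05). Leaving out each library in turn kept these calls, but the value in LZK KO ran from -2.11 to -1.31, against -2.34 to -1.96 in DLK KO. For GADD45G the differences were -1.07 ± 0.16 (edgeR adjusted p = 6.98e-06), -0.97 ± 0.17 (8.31e-05) and -0.82 ± 0.17 (0.000457). The response of GADD45A in double KO was below that in LZK KO, with a difference of -0.93 ± 0.14 (edgeR adjusted p = 0.000131), the 1 member of 3 called there (0.746% of genes called lower). Against DLK KO 0 of 3 members were called (1.01% of genes called lower), with 1 at an unadjusted p under 0.05 and 1 called by DESeq2 and by limma voom. That member was GADD45A, at -0.49 ± 0.14 (edgeR adjusted p = 0.072), while GADD45B was at -0.32 ± 0.50 and GADD45G at 0.26 ± 0.17.

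In experiment 2 GADD45G stood apart from the other members in JUN gRNA, where its difference from Control gRNA was not called. Against Control gRNA all 3 responded less in ATF2 gRNA (10.4% of genes called lower) and 2 of 3 in JUN gRNA (7.06%), comparisons that share the Control gRNA libraries. GADD45A differed by -2.29 ± 0.10 in ATF2 gRNA (edgeR adjusted p = 2.61e-23) and by -1.97 ± 0.09 in JUN gRNA (3.46e-21). GADD45B differed by -3.73 ± 0.45 in ATF2 gRNA (edgeR adjusted p = 1.02e-08) and by -2.00 ± 0.45 in JUN gRNA (0.00105). GADD45G differed by only -0.34 ± 0.13 in ATF2 gRNA (edgeR adjusted p = 0.0474), a call that was lost in 17 of 26 alternatives. In JUN gRNA GADD45G differed by 0.02 ± 0.12 (edgeR adjusted p = 0.952), which does not show equal responses. Between ATF2 gRNA and JUN gRNA 1 of 3 members was called (1.92% of genes called lower), GADD45B at -1.73 ± 0.47 (edgeR adjusted p = 0.0268). It was lost in 11 of 26 alternatives, among them limma voom, at -1.05 (adjusted p = 0.434). For GADD45A this difference was -0.32 ± 0.10 (edgeR adjusted p = 0.0536) and for GADD45G -0.36 ± 0.13 (0.122).

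The untreated level of the members also differed between lines, before any drug. In DLK KO GADD45B was lower than in WT (-0.93 ± 0.31, edgeR adjusted p = 0.0198) and GADD45G higher (0.49 ± 0.12, 0.00119), in a comparison that called 34.5% of genes. The call of GADD45B was lost when WT untreated replicate 3 was left out (-0.80), and likewise for replicates 1 (-0.85) and 3 (-0.74) of untreated DLK KO. In LZK KO 1 member was called (33.9% of genes), GADD45A at -0.67 ± 0.10 (edgeR adjusted p = 9.35e-07), or 63.0% of the WT mean. GADD45G in LZK KO was at 0.28 ± 0.12 with no overlap of libraries, but was not called (edgeR adjusted p = 0.0731). In double KO 2 members were called (45.7% of genes), GADD45A at -1.10 ± 0.10 (edgeR adjusted p = 8.37e-12) and GADD45B at -1.21 ± 0.32 (0.00209). GADD45G in double KO was at 89.9% of WT and was not called (-0.16 ± 0.12, edgeR adjusted p = 0.308).

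In ATF2 gRNA 1 member differed untreated (39.9% of genes called), GADD45G at 1.06 ± 0.09 (edgeR adjusted p = 3.84e-14), or 209% of Control gRNA with no overlap. GADD45A was within its spread there (0.06 ± 0.07, edgeR adjusted p = 0.549). GADD45B was at 147% of Control gRNA and was not called (0.55 ± 0.32, edgeR adjusted p = 0.172). It was called without Control gRNA untreated replicate 4 (0.86), and also without ATF2 gRNA untreated replicate 2 (0.76). In JUN gRNA 2 members were lower (11.2% of genes called), GADD45A at -0.43 ± 0.07 (edgeR adjusted p = 3.05e-06) and GADD45B at -1.07 ± 0.34 (0.0345). The GADD45B libraries of JUN gRNA and Control gRNA overlapped, and the call was lost in 8 of 17 alternatives, among them without Control gRNA untreated replicate 4 (-0.76). Markers of other cell types differed between the untreated lines too. The 4 pluripotent stem cell markers summed to 2.60 to 3.35 CPM in WT, 52.9 to 59.0 in double KO, 9.58 to 13.5 in Control gRNA and 33.8 to 40.2 in ATF2 gRNA, with NANOG under 1 CPM in every library. In experiment 1 nearly all of this gap was LIN28A, a stem cell RNA-binding protein, at 1.88 CPM in WT and 53.4 CPM in double KO, while POU5F1 was at 0.292 and 0.670 CPM. In experiment 2 it was LIN28A (15.9 CPM in ATF2 gRNA against 4.05 in Control gRNA) and DPPA4 (19.6 against 7.23 CPM). The 4 dividing-cell markers summed to 62.5 to 70.8 CPM in LZK KO and 10.6 to 12.4 in WT, a gap mostly of MKI67 (33.1 against 4.83 CPM) and TOP2A (20.9 against 1.53 CPM). The part of these markers in the untreated levels of the members was not tested.

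Ordered by level within experiment 1, WT vincristine came above every other group for all 3 members with no overlap. For GADD45A, DLK KO vincristine, LZK KO vincristine, WT untreated and DLK KO untreated followed, each overlapping the next, and below a gap came LZK KO untreated and then both double KO groups. For GADD45B, LZK KO vincristine followed, apart from both its neighbours in the order but within the range of LZK KO untreated (0.91 to 4.00 CPM). The other 6 groups overlapped in a chain from 2.31 CPM in WT untreated to 1.00 in double KO untreated. For GADD45G all 7 other groups formed 1 such chain, from 10.7 to 6.77 CPM. In experiment 2, Control gRNA vincristine came above the others for GADD45A and GADD45B, with JUN gRNA untreated last for both. For GADD45G the order was both ATF2 gRNA groups, then the vincristine and then the untreated groups of JUN gRNA and Control gRNA, with a gap after each of the first 2 pairs.

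Per kilobase of the deposited gene length, used to compare levels between genes, the leading member differed between lines. This length is 1 value per gene, while GENCODE 29 lists 7 transcripts for GADD45A, 7 for GADD45B and 3 for GADD45G. Which transcripts were expressed was not tested, so close levels do not show which member leads. The deposited lengths were 2069 bases for GADD45A, 2138 for GADD45B and 1322 for GADD45G. In Control gRNA untreated, GADD45A was at 9.08 CPM per kb and GADD45G at 9.88, with overlapping shares. With vincristine GADD45A was at 43.2, GADD45G at 14.0 and GADD45B at 4.03 CPM per kb. GADD45A thus went from 47.4% ± 2.71 to 70.6% ± 1.85 of the summed family level (SD, n = 5 and 5). In ATF2 gRNA GADD45G led in both treatments, at 67.6% untreated and 70.4% with vincristine, and in JUN gRNA it led at 61.9% and 64.9%. The summed family level went from 19.2 to 61.3 CPM per kb in Control gRNA, from 30.4 to 32.7 in ATF2 gRNA and from 18.0 to 24.8 in JUN gRNA.

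In WT GADD45A led in both treatments, at 62.3% and 66.9% of the family level, and the share of GADD45B went from 6.00% to 11.8%. In double KO GADD45A and GADD45G were close, at 48.2% and 47.5% untreated and 45.8% and 49.9% with vincristine. The summed level went from 18.0 to 56.8 CPM per kb in WT, from 19.3 to 25.2 in DLK KO, from 14.9 to 23.6 in LZK KO and from 10.8 to 12.4 in double KO.

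**Figure D3:**
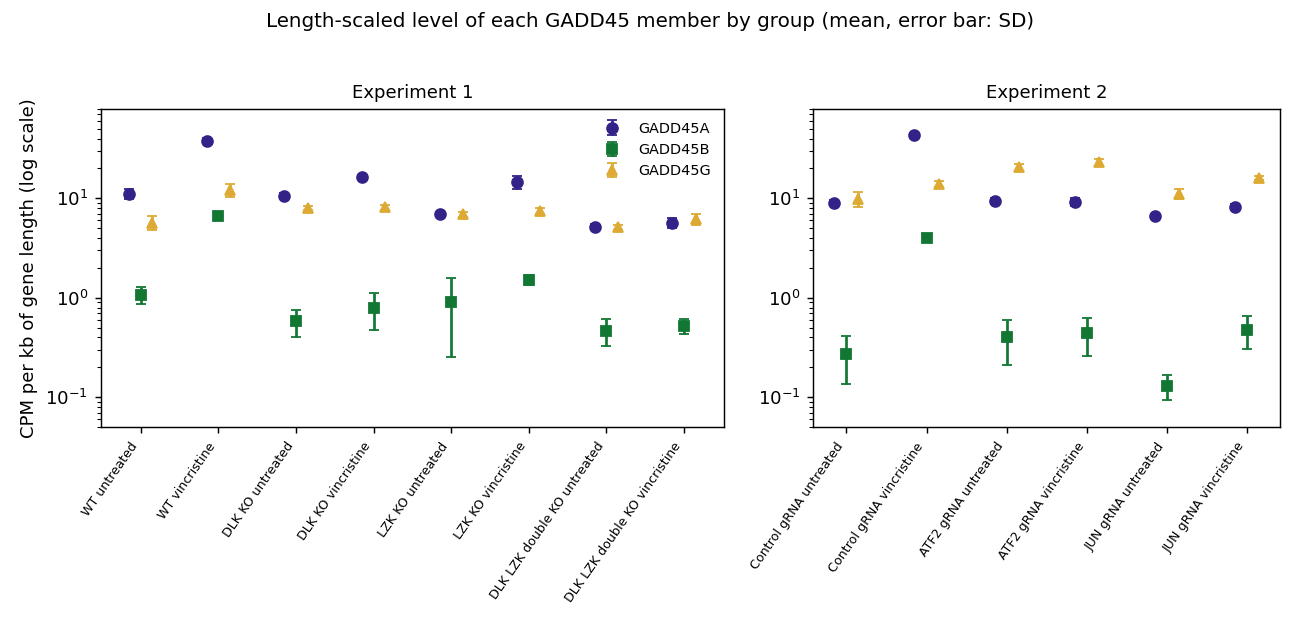
Mean level per kilobase of gene (CPM per kb) of each member in each group on a log axis, with SD between libraries. GADD45B is the lowest in every group, GADD45A is far above GADD45G in WT vincristine and Control gRNA vincristine, and GADD45G is above GADD45A in ATF2 gRNA and JUN gRNA.

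Among the genes through which GADD45 proteins act, CDKN1A changed most with vincristine in WT and Control gRNA. The other called partners had log2 changes with vincristine from -0.68 to 0.37 in these 2 lines. Of 10 stress-kinase partners (MAP3K4, the MAP2K kinases and the JNK and p38 kinases), 2 were called in WT, both lower, MAP2K3 at -0.68 and MAPK9 at -0.13 (log2), with a list median of -0.01 against 0.00 over all genes, of which 14.5% were called lower, a share near that of the list. In Control gRNA 5 were called, all lower, among them MAP2K3 at -0.53 and MAP2K6, an activator of p38, at -0.41 (median -0.09 against 0.03, with 18.1% of all genes called lower). Counts for this list moved with the method, from 1 to 5 in WT and from 3 to 5 in Control gRNA. Of the 4 cell cycle and repair partners, CDKN1A, the cell cycle inhibitor p21, rose by 3.24 ± 0.22 in WT, 1.88 ± 0.08 in Control gRNA and 0.78 ± 0.08 in JUN gRNA. Its change was 0.70 ± 0.27 in DLK KO (edgeR adjusted p = 0.107), 1.47 ± 0.47 in LZK KO (0.0718), 0.34 ± 0.52 in double KO (0.914) and 0.18 ± 0.08 in ATF2 gRNA (0.205), none called by edgeR. In DLK KO and in LZK KO 0 of these 4 partners were called by edgeR, with 2 at an unadjusted p under 0.05 and 1 called by DESeq2 in each, and limma voom called 1 in DLK KO and 0 in LZK KO. PCNA, the DNA clamp of replication and repair, fell by 0.64 on the log2 scale in WT and by 0.25 in Control gRNA. Of 10 DNA demethylation partners, 1 rose and 2 fell in WT (median -0.09 against 0.00; 15.7% of all genes rose and 14.5% fell) and 1 rose and 4 fell in Control gRNA (0.00 against 0.03; 17.1% rose and 18.1% fell). TET2, which oxidises methylcytosine, rose by 0.25 in WT and 0.37 in Control gRNA, and NEIL2, a repair glycosylase, was lower at -0.62 and -0.28.

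Among 11 transcription regulators known to act on GADD45 genes, EGR1, ATF3 and DDIT3 had the largest rises. In WT 7 rose and 3 fell (median 0.58 against 0.00 over all genes, of which 15.7% rose and 14.5% fell), and in Control gRNA 8 rose and 1 fell (0.59 against 0.03, with 17.1% and 18.1%). EGR1, an immediate early factor, rose by 4.01 ± 0.16 in WT and 3.20 ± 0.11 in Control gRNA, ATF3, an injury-induced factor of the ATF family, by 3.98 ± 0.11 and 3.48 ± 0.07, and DDIT3 (CHOP), a stress factor, by 3.14 ± 0.16 and 2.89 ± 0.07. ATF4, the factor of the integrated stress response, rose by 1.09 ± 0.09 in WT but was at -0.10 ± 0.04 in Control gRNA, and both were called. In DLK KO 4 rose (4.24% of all genes rose), in LZK KO 6 (2.27%), in ATF2 gRNA 3 (1.88%) and in JUN gRNA 7 (7.58%). In double KO edgeR called 0 (0.00548% of all genes rose), with 0 at an unadjusted p under 0.05, 0 by DESeq2 and 0 by limma voom. EGR1 rose by 2.92 ± 0.10 in JUN gRNA, where ATF3 rose by 1.42 ± 0.07 and DDIT3 by 1.59 ± 0.07.

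Before the drug, 6 of the 11 regulators were higher and 3 lower in ATF2 gRNA than in Control gRNA, in a comparison that called 39.9% of all genes. EGR1 was at 5.27 ± 0.11 (log2), DDIT3 at 2.53 ± 0.07 and FOXO1, a FOXO factor, at 1.19 ± 0.19. The other 3 that were higher were at 0.20 to 0.29 (ATF3, POU2F1 and NFYA). FOXO3 was lower, at -0.60 ± 0.05, as were JUND at -0.52 ± 0.06 and ATF4 at -0.14 ± 0.04, all called by edgeR. In double KO 7 of the 11 were lower than in WT and 2 higher (45.7% of all genes called). ATF3 was lowest at -3.12 ± 0.17, followed by EGR1 at -1.98 ± 0.20, JUND at -1.70 ± 0.17, FOXO1 at -1.05 ± 0.28 and FOXO3 at -0.98 ± 0.11, with DDIT3 at -0.65 and MYC at -0.44. NFYA (0.58 ± 0.06) and POU2F1 (0.38 ± 0.07) were the 2 that were higher. Among the cell cycle partners, untreated CDKN1A was at 2.06 ± 0.08 in ATF2 gRNA against Control gRNA and at -2.29 ± 0.39 in double KO against WT, both called by edgeR.

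**Figure D4:**
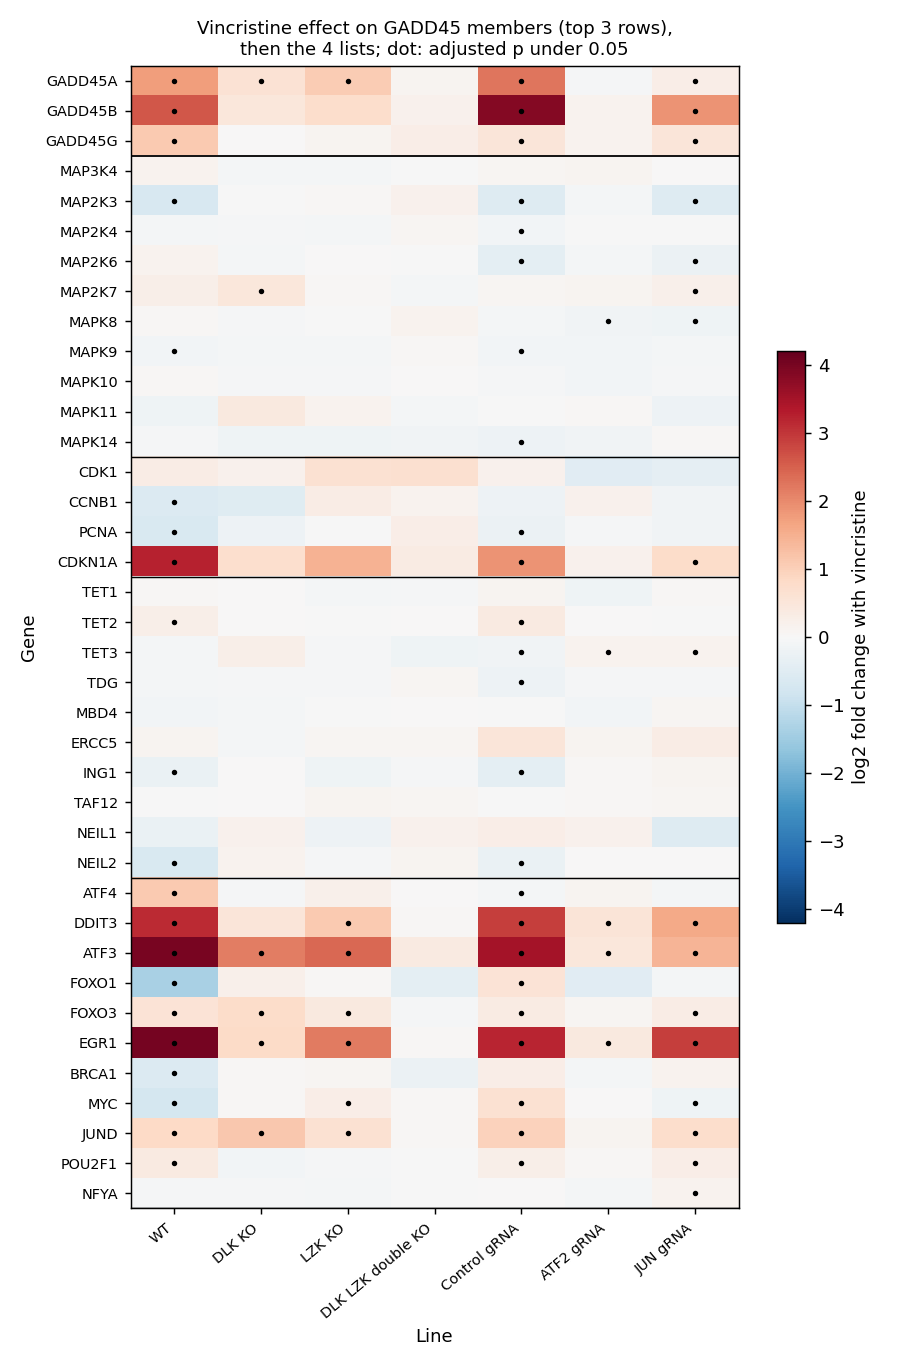
Log2 fold change with vincristine (colour) for the members and the genes of the 4 lists (down the side) in the 7 lines (along the bottom); dots mark called genes. EGR1, ATF3, DDIT3 and CDKN1A are strongest in WT and Control gRNA, and the stress-kinase and demethylation partners are paler throughout.

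The genes whose group means followed each member most closely were ranked by the smaller of 2 Pearson correlations of log2 CPM, over the 8 groups of experiment 1 and the 6 of experiment 2. The points are group means from the same libraries and treatments as the members' own, so the values are descriptions. For GADD45A 12337 genes were ranked. For GADD45A they were OXR1, an oxidation resistance gene (0.964), EIF2AK3, the stress kinase PERK (0.955), GPANK1 (0.955), FLCN, folliculin (0.953), and ZBTB7C (0.953). For GADD45B they were ARID5A (0.970), ZNF641 (0.970), AL031587.5 (0.969), MICALL1 (0.965) and GEN1, a nuclease that resolves recombination junctions (0.965). GADD45B itself fell short of the level asked of ranked genes (mean log2 CPM of at least 1 in both experiments). In experiment 2 its mean was 8.61 CPM in Control gRNA vincristine and 0.281 to 1.03 CPM in all other groups, so 1 group weighs heavily in its correlations. For GADD45G the closest genes were STRN (0.922), ALG13 (0.914), AC006333.2 (0.906), U73166.1 (0.905) and ARC, a neuronal activity gene (0.902). Between members, GADD45A and GADD45B correlated at 0.881 in experiment 1 and 0.962 in experiment 2, and GADD45A and GADD45G at 0.881 and -0.01.

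A neural progenitor marker, NES (nestin), rose in the 5 lines in which at least 1 member rose. The 4 progenitor markers summed to 728 to 770 CPM in WT untreated and 914 to 1940 with vincristine, 196 to 261 and 473 to 588 in DLK KO, 463 to 619 and 916 to 1108 in LZK KO, and 104 to 112 and 97.2 to 103 in double KO. In experiment 2 they summed to 1308 to 1397 and 2426 to 2522 CPM in Control gRNA, 735 to 813 and 695 to 802 in ATF2 gRNA, and 955 to 1079 and 1655 to 1761 in JUN gRNA. Nearly all of this sum was NES, which rose by 1.25 ± 0.14 in DLK KO, 1.09 ± 0.14 in WT and 0.91 ± 0.14 in LZK KO (log2), and by 0.88 ± 0.03 in Control gRNA and 0.73 ± 0.03 in JUN gRNA. It was at -0.12 ± 0.14 in double KO and -0.06 ± 0.04 in ATF2 gRNA, neither called by edgeR. Its response differed from WT by 0.15 ± 0.19 in DLK KO (edgeR adjusted p = 0.641) and by -0.18 ± 0.19 in LZK KO (0.599), neither called, while all 3 GADD45 members responded less than WT in both lines. The other 3 markers were low, with PAX6 at 1.72 and 1.63 CPM and HES5 at 0.47 and 0.49 CPM in WT untreated and vincristine. SOX2 was at 22.4 and 20.5 CPM in WT and at 14.5 and 22.2 CPM in Control gRNA. The part of these markers in the GADD45 results was not tested.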

How the data were processed

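RNA from 61 libraries in 14 groups was sequenced as read pairs after poly(A) selection with a stranded kit, per the labels' protocols. The authors deposited raw read counts per gene, as whole numbers, with a separate file for each experiment. Per the submitters' processing notes, cutadapt 3.4, STAR, featureCounts, Subread 2.0.1 and GRCh38 were used; the annotation release, the strand setting and the handling of duplicates are not given in the sources used here. Of 58440 gene identifiers, 56992 had the same version in GENCODE 29 and 58320 were matched to a symbol. Groups come from the sample titles, and 0 count columns were left unused.

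Each experiment was fitted on its own with edgeR 4.0.16 in R 4.3.3 (filterByExpr by group, TMM factors, robust quasi-likelihood, 1 mean per group), which tested 18235 and 20759 genes. The 20 comparisons are the vincristine effect per line, differences in that effect, and untreated levels; p-values are 2-sided and adjusted by Benjamini and Hochberg per comparison. A standard error (SE) is the log2 fold change over the square root of F. Levels are CPM scaled with TMM factors; SD is their standard deviation over the libraries of a group. The precision is limited by the number of libraries, and untreated counts of GADD45B were low in both experiments. The fits were tested on simulated data.

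Named are the 3 members, the targeted genes, the members of 4 lists, marker genes, and the 5 genes whose pattern is most like each member (prior count 2, mean log2 CPM of at least 1). Members and lists were chosen with earlier results of these data known. A regulator and 2 cortical markers from those lists are not reported here, and list counts, medians and sums leave them out. Alternatives were DESeq2 1.42.0, RLE factors, leaving out the filter, filtering at 1 CPM on average, limma 3.58.1 voom with quality weights, the replicate number as a block, only the groups compared, leaving out each library, and for patterns a prior count of 0.5. Files were read with the data.table package (version 1.17.8), and the plots made in Python 3.11.15 with matplotlib 3.10.9.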

Additional observations from a re-analysis of the deposited data

Results flagged for a closer look

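The response to vincristine differed between lines for every member, by the edgeR test of the difference itself (log2 differences, adjusted p under 0.05). For GADD45A it was, against WT, -1.15 (DLK KO), -0.71 (LZK KO) and -1.64 (double KO), -0.93 in double KO against LZK KO, and -2.29 in ATF2 gRNA and -1.97 in JUN gRNA against Control gRNA. For GADD45B it was -2.12, -1.88 and -2.44 in the same lines, -3.73 in ATF2 gRNA and -2.00 in JUN gRNA against Control gRNA, and -1.73 in ATF2 gRNA against JUN gRNA. For GADD45G it was -1.07, -0.97 and -0.82 in these lines, and -0.34 in ATF2 gRNA against Control gRNA. Comparisons with the same control line share its libraries.

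Of 42 sets of libraries (3 members in 14 groups), 2 held a library far from the others, and chance gives about 1 in 20. GADD45A in ATF2 gRNA vincristine replicate 2 was at 21.6 CPM, against 18.0 to 18.4 CPM in the other 3. Without it the difference of GADD45A between ATF2 gRNA and JUN gRNA was -0.37 and was called (edgeR adjusted p = 0.0212). GADD45B in Control gRNA vincristine replicate 3 was at 7.95 CPM, against 8.65 to 8.88 CPM in the other 4, and leaving it out changed no call of GADD45B against Control gRNA untreated or in the differences between lines.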

How the results depend on the processing

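The 60 member results (3 members in 20 comparisons) were each recomputed under the alternatives that applied to them, 1149 recomputations in all. Direction and call were kept in 1081, and 45 results changed in none. Loss of a call came in 39, gain of a call in 16 and a change of sign in 13, each of the last in a result that was not called. The cause of these changes was not tested, except that leaving out a library leaves fewer samples.

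With limma voom GADD45B in LZK KO rose by 1.19, its untreated level in LZK KO was -0.75, and that of GADD45G was 0.31, all called there. GADD45A in double KO against DLK KO was called with DESeq2 (-0.48), limma voom (-0.49) and only the groups compared (-0.50), and between ATF2 gRNA and JUN gRNA with DESeq2 (-0.31). GADD45G in ATF2 gRNA against Control gRNA lost its call with DESeq2 (-0.33), RLE factors (-0.33) and only the groups compared (-0.33). GADD45G in JUN gRNA against Control gRNA changed sign with no filter (-0.016) and limma voom (-0.011). GADD45B between ATF2 gRNA and JUN gRNA lost its call with limma voom (-1.05) and only the groups compared (-1.71), as did its untreated level in JUN gRNA (-0.78 and -1.07).

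Leaving out each library in turn changed calls or signs in these results, given by their lowest and highest values. Effects of vincristine ran from -0.022 to 0.041 for GADD45G in DLK KO, from 0.50 to 1.29 for GADD45B in LZK KO and from -0.10 to 0.35 for GADD45B in ATF2 gRNA. Differences in effect ran from -0.43 to -0.28 for GADD45G in ATF2 gRNA and from -0.067 to 0.083 in JUN gRNA, both against Control gRNA. Between ATF2 gRNA and JUN gRNA they ran from -0.37 to -0.28 for GADD45A and from -1.96 to -1.51 for GADD45B. Untreated levels against WT ran from -0.12 to 0.014 for GADD45A and from -1.06 to -0.74 for GADD45B in DLK KO, and from -0.83 to -0.028 for GADD45B in LZK KO. Against Control gRNA they ran from 0.36 to 0.86 for GADD45B in ATF2 gRNA, from -1.25 to -0.76 for GADD45B in JUN gRNA and from 0.12 to 0.27 for GADD45G in JUN gRNA. The call of GADD45B in untreated ATF2 gRNA came without Control gRNA untreated replicate 4 or ATF2 gRNA untreated replicate 2, and that of GADD45B in untreated LZK KO without LZK KO untreated replicate 4.

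The replicate numbers did not pair the libraries. Deviations of libraries with the same number correlated with a median of 0.00248 in experiment 1 and -0.00106 in experiment 2, and 9 of 32 and 7 of 29 libraries correlated best with their own number. With the replicate number as a block, GADD45B between ATF2 gRNA and JUN gRNA was at -1.59 and was not called (edgeR adjusted p = 0.0647), and no other member call changed. Over all genes the block moved the number of calls by at most 1.24 times. Of the list counts, those of the regulators stayed within 1.5 times and those of the stress-kinase partners moved most, from 1 to 5 in WT. With a prior count of 0.5, TMEM198B replaced ZBTB7C beside GADD45A and LYSMD4 replaced GEN1 beside GADD45B, and the 5 genes beside GADD45G were the same.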

Other observations

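TUBB3, a neuronal tubulin, fell with vincristine in all 7 lines, including both in which no member of the family was called by edgeR. The RNA of TUBB3 is known to fall when free tubulin rises, but free tubulin was not measured and the cause was not tested. The log2 change of TUBB3 was -0.90 ± 0.10 in WT, -0.80 ± 0.11 in DLK KO and -0.77 ± 0.10 in LZK KO. In double KO it was -1.10 ± 0.10 (edgeR adjusted p = 1.07e-09). In experiment 2 TUBB3 was at -0.66 ± 0.12 in Control gRNA, -0.60 ± 0.13 in ATF2 gRNA (edgeR adjusted p = 0.00248) and -0.65 ± 0.12 in JUN gRNA. In double KO the mean level of TUBB3 was 43.5 CPM untreated and 20.3 CPM with vincristine, while GADD45A was at 10.8 and 11.8 CPM. The level of TUBB3 was low beside that of MAP2, another neuron marker, at 2719 CPM in untreated double KO. Whether another annotated gene overlaps TUBB3 and takes reads from its count was not tested.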
